A study of Homo sapiens with 6 samples.

Results

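A group of 10 secreted inflammatory signals was followed at the mRNA level in 2 human ovarian tumour lines after depletion of MEX3A, an RNA-binding protein with KH domains and a RING finger. They were the interleukin-1 ligands IL1A and IL1B, the interleukin-6 family cytokines IL6, IL11 and LIF, and the chemokines CXCL8, CXCL1, CXCL2, CCL2 and CXCL12. These 10 genes of the 39282 in the tables were taken by name, by a choice made with earlier hairpin-against-control differences of these same libraries in view. The differences between hairpin and control libraries are therefore given as descriptions, with no test on the 10 genes. Of the 10, 9 passed the filter on low counts that 16855 genes passed, and IL1B did not.

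The libraries fall into 4 groups. PA-1, labelled an ovarian teratocarcinoma line, had 2 libraries with lentiviral short hairpins against MEX3A (sh-MEX3A#1 and sh-MEX3A#2, called hairpin 1 and hairpin 2) and 1 with the scramble hairpin (sh-Ctrl, called the control). TOV21G, labelled an ovarian clear cell carcinoma line, had the same 3 kinds of library. All 6 cell populations, the controls included, carried a lentivirus, and the labels give no time after infection. PA-1 grew in EMEM and TOV21G in a mixture of 2 other media with more serum, so line and medium cannot be told apart. The series' design text calls each depleted population a clone. Each control is a single library, so no hairpin difference has a replicate of its control, and nothing in the labels states that libraries came from separate cultures.

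Interleukin-1 is released by damaged or activated cells and signals through IL1R1 and IL1RAP to NF-kB and AP-1, transcription factors that switch on many other cytokines. The interleukin-6 family signals through the shared receptor chain gp130 (gene IL6ST) to JAK kinases and STAT3. Chemokines with the ELR motif, such as CXCL8, CXCL1 and CXCL2, attract neutrophils through CXCR1 and CXCR2, whereas CCL2 attracts monocytes through CCR2 and CXCL12 guides cells bearing CXCR4. In ovarian cancer these proteins are known as tumour-derived signals to blood vessels, leukocytes and the peritoneal lining. Many of their mRNAs are short-lived, in part through AU-rich elements in the 3′ untranslated region (3′UTR) that recruit decay factors.

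The upstream DNA of these genes is shown first because the best studied control of this family, by NF-kB, AP-1 and C/EBP factors, acts there. RefSeq promoter windows (GRCh38.p14, 250 bases before to 50 after the annotated start) were at hand for IL1A, IL1B, IL6, IL11, CXCL8, CXCL1, CXCL2 and CXCL12. The 160 bases before the start are printed 5′ to 3′ on the gene's own strand for the 6 genes whose values the results turn on most and for CXCL12, the gene that went the other way. Capitals mark GGNNNTTCC (NF-kB-type letters), TGANTCA (AP-1) or TTGCNNAA (C/EBP), searched on both strands. These letters were chosen with the sequences in view. The stretches lie at CXCL1 chr4:73869233-73869392 (plus strand), CXCL2 chr4:74099196-74099355 (minus strand), CXCL8 chr4:73740409-73740568 (plus strand), IL6 chr7:22727040-22727199 (plus strand), IL11 chr19:55370464-55370623 (minus strand), IL1A chr2:112784494-112784653 (minus strand) and CXCL12 chr10:44385098-44385257 (minus strand).
CXCL1: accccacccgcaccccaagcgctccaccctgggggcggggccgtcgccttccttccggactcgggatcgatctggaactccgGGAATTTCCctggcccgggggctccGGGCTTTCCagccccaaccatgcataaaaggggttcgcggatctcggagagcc
CXCL2: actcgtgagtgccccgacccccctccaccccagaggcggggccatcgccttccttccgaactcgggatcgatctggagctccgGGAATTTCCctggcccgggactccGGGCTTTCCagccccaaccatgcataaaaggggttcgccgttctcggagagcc
CXCL8: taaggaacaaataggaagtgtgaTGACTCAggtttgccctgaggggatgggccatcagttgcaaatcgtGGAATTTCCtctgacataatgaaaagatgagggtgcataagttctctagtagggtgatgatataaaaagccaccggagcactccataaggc
IL6: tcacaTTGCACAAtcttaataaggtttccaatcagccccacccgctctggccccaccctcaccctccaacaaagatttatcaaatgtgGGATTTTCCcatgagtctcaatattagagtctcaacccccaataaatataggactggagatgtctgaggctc
IL11: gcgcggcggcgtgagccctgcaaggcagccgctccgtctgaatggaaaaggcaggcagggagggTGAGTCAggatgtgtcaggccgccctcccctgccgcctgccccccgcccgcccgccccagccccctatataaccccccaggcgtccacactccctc
IL1A: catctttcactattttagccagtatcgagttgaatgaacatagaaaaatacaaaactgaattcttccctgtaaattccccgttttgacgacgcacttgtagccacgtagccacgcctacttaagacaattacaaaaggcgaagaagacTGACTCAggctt
CXCL12: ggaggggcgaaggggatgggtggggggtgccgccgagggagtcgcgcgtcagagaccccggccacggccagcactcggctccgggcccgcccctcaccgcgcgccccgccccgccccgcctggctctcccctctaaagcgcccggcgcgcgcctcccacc

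CXCL1 and CXCL2 carry a pair of NF-kB-type matches each, those of CXCL1 starting at -78 and -53 and those of CXCL2 at -77 and -53 relative to the start. Over the last 100 bases before the start the alignment of these neighbouring paralogs had 95 identical columns of 101, or 94.1%. CXCL8 had an AP-1 match starting at -137 and an NF-kB-type match at -91, and IL6 had a C/EBP match at -155 and an NF-kB-type match at -72. IL11 had an AP-1 match at -96. IL1A has 2 annotated starts. From the one printed, it had an AP-1 match at -12 and another, past the stretch, at 38, and from the other start the same matches lie at -105 and -55. In the 300-base window IL1B had a C/EBP match at -215 and CXCL2 one at -188, outside the printed bases, and CXCL12 held none of the 3 motifs. Such matches are common: of all 35116 promoter windows, 20.1% held GGNNNTTCC, 7.71% TGANTCA and 10.5% TTGCNNAA. A match is a description of the letters and does not show that a factor binds there.

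**Figure D1:**
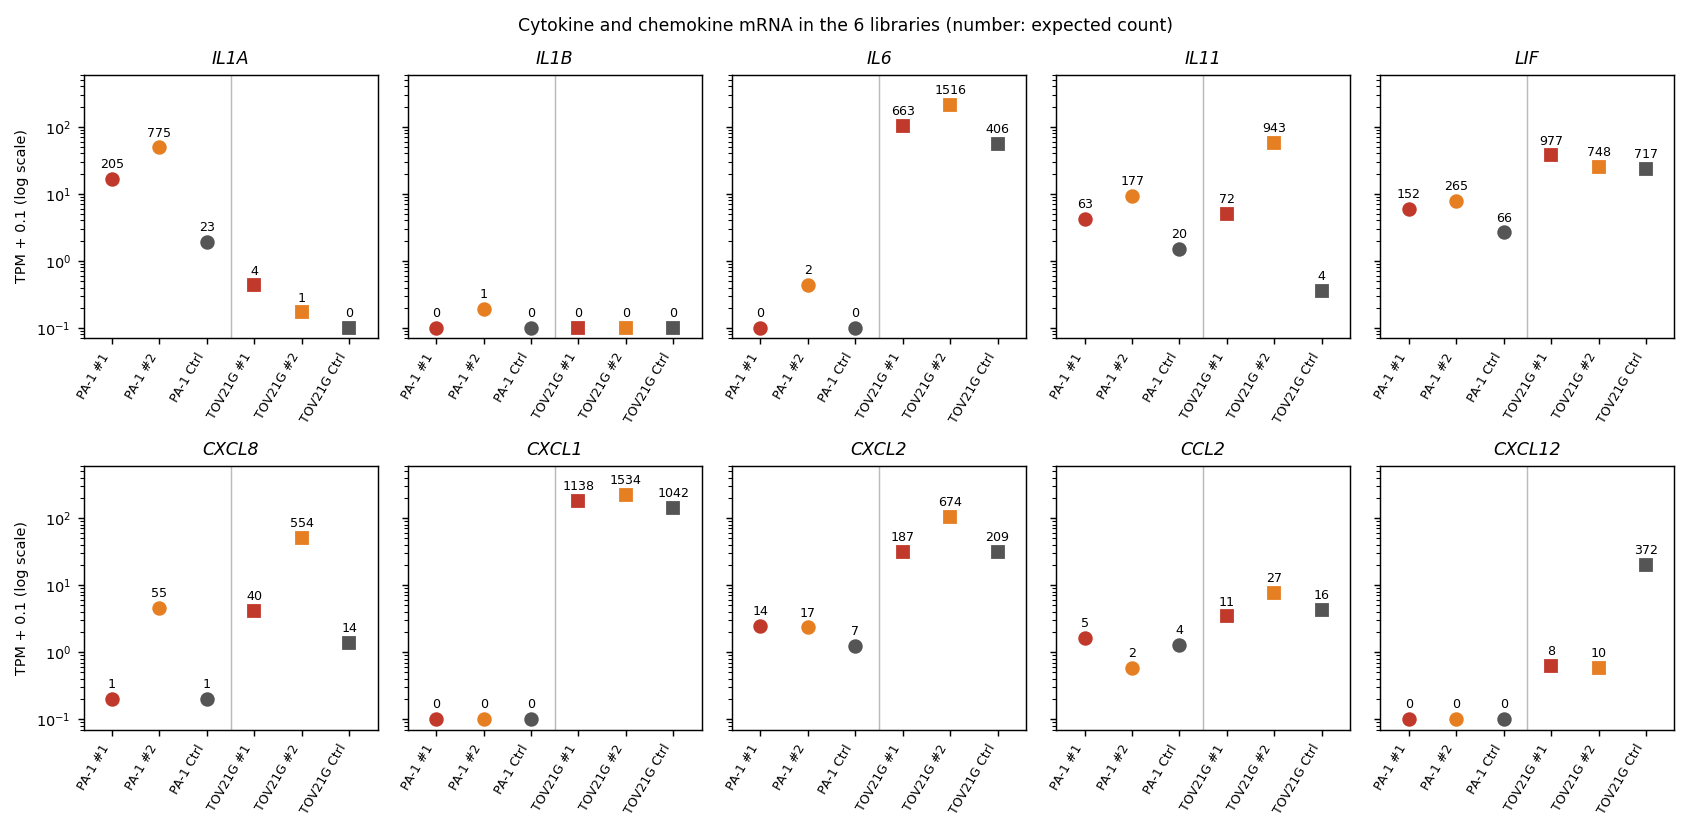
TPM plus 0.1 on a log axis for each gene in the 6 libraries, with PA-1 as circles and TOV21G as squares (hairpin 1 red, hairpin 2 orange, control grey). The number above each point is the expected count. IL1A was high only in the PA-1 libraries with a hairpin, CXCL12 was high only in the TOV21G control, and IL6 and CXCL1 were at 0 to 2 counts in PA-1.

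IL1A, the interleukin-1 ligand that is active as its precursor and acts as an alarm signal of injured cells, was far higher with both hairpins in PA-1. Its TPM (a level per transcript length, scaled to a fixed total per library) was 16.41 with hairpin 1 and 49 with hairpin 2, against 1.81 in the PA-1 control. These rest on 205 and 775 expected counts with the hairpins and 23 in the control. Hairpin 1 gave 8.59 times the control's CPM (counts scaled by the TMM-adjusted library total; 95% counting interval 5.57 to 13.9) and hairpin 2 gave 27.2 times (18 to 43.2). Both PA-1 hairpin libraries lay well above the control, and hairpin 2 above hairpin 1. In TOV21G, IL1A had 4 and 1 counts with hairpins 1 and 2 and 0 in the control, where 3 counts is the level that a count of 0 allows. RNA was taken from whole cultures, so more cells making an mRNA and more mRNA per cell cannot be told apart. Counting intervals and floors here and below cover counting error only.

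IL1B, the secreted interleukin-1 ligand encoded next to IL1A on chromosome 2, had 0 and 1 counts in the PA-1 hairpin libraries and 0 in the PA-1 control. It had 0 counts in all 3 TOV21G libraries. A count of 0 allowed at most 0.153 to 0.202 CPM over the 6 libraries, so no IL1B difference was detectable at this depth. IL1A lies at chr2:112773925-112784493 and IL1B at chr2:112829751-112836779 in GRCh38.p14. Of the other interleukin-1 family genes at that locus, IL1RN (the receptor antagonist), IL36B and IL37 had 0 counts in all 6 libraries and IL36G reached at most 0.0607 CPM.

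IL11, a gp130 cytokine known for its part in fibrosis and in bone and blood cell formation, was the only one of the 10 genes at least 2-fold higher with both hairpins in both lines. In PA-1 it had 4.17 and 9.26 TPM with hairpins 1 and 2, against 1.42 TPM in the control (63, 177 and 20 counts). In TOV21G it had 4.9 and 57.81 TPM with the hairpins, against 0.26 TPM in the control (72, 943 and 4 counts). The PA-1 ratios were 3.04 (1.81 to 5.3) and 7.15 (4.49 to 12). The TOV21G ratios were 18.3 (6.84 to 68.9) and 244 (94.9 to 897), wide because the control held 4 counts. In each line the hairpin 2 library was the highest and the control the lowest.

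LIF, which keeps mouse embryonic stem cells undifferentiated and signals through LIFR with gp130, was higher with both hairpins in PA-1. It had 5.8 and 7.79 TPM with hairpins 1 and 2, against 2.56 TPM in the PA-1 control, or 2.22 (1.65 to 3.01) and 3.24 (2.47 to 4.32) times the control's CPM. In TOV21G it had 37.21 and 25.1 TPM with the hairpins and 23.59 TPM in the control, ratios of 1.38 (1.25 to 1.53) and 1.08 (0.973 to 1.2). Every TOV21G library thus held more LIF mRNA than any PA-1 library, and the hairpin 2 library of TOV21G lay within counting error of its control.

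IL6, the namesake of the family and a driver of STAT3 signalling and of the acute phase response, was measured in TOV21G and almost absent from PA-1. TOV21G had 103.81 and 213.42 TPM with hairpins 1 and 2, against 55.92 TPM in the control. The ratios of CPM were 1.66 (1.46 to 1.88) and 3.86 (3.46 to 4.32). PA-1 had 0 and 2 counts with the hairpins and 0 in the control, all under the level that a count of 0 allows. The expected counts in TOV21G were 662.7 and 1515.67 with the hairpins and 406 in the control.

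CXCL8 (interleukin-8), the main neutrophil attractant in humans, was set apart by hairpin 2. In TOV21G it had 3.96 TPM with hairpin 1 and 51.04 TPM with hairpin 2, against 1.27 TPM in the control (40, 554 and 14 counts). Those are 2.9 (1.54 to 5.77) and 40.9 (24.2 to 75.4) times the control's CPM. In PA-1 it had 1 count with hairpin 1 and 55 with hairpin 2, against 1 in the control. The hairpin 2 ratio there was 44.4, with a counting interval of 7.65 to 1790. In both lines the hairpin 2 library stood above the other libraries of the line. The hairpin 2 minus hairpin 1 difference was 3.99 in PA-1 and 3.76 in TOV21G on the log2 CPM scale (prior count of 2). The PA-1 value rests on 55 counts against 1. The gene was chosen with these differences in view, so no rank among all genes is read from them.

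CXCL1, another CXCR2 ligand, had the highest TPM of the 10 genes in each TOV21G library. It had 179.51 and 218.57 TPM with hairpins 1 and 2 there and 143.02 TPM in the control, ratios of 1.11 (1.02 to 1.21) and 1.52 (1.41 to 1.65). In PA-1 it had 0 counts in all 3 libraries. CXCL2, its close paralog, had 31.53 and 102.9 TPM with hairpins 1 and 2 in TOV21G, against 30.71 TPM in the control. Its ratios there were 0.908 (0.742 to 1.11) and 3.34 (2.85 to 3.91), so only the hairpin 2 library left the range of counting error. PA-1 had 14 and 17 CXCL2 counts with the hairpins and 7 in the control, ratios of 1.93 and 1.96 whose counting intervals (0.728 to 5.64 and 0.773 to 5.6) include no difference. The expected counts of both paralogs were whole numbers in all 6 libraries, so they show no read divided between genes.

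CCL2, the monocyte attractant MCP-1, stayed at low counts. TOV21G had 11 and 27 counts with hairpins 1 and 2 and 16 in the control, ratios of 0.698 (0.293 to 1.6) and 1.75 (0.907 to 3.47). PA-1 had 5 and 2 counts with the hairpins and 4 in the control. Hairpins 1 and 2 went opposite ways in each line, and each of the 4 counting intervals included no difference.

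CXCL12 (SDF-1), which holds stem cells and directs CXCR4-bearing tumour cells, was the one gene that was lower with both hairpins. In TOV21G it had 0.52 and 0.48 TPM with hairpins 1 and 2, against 20.03 TPM in the control (8, 10 and 372 counts). That is 45.8-fold lower with hairpin 1 and 36-fold lower with hairpin 2, or -5.22 and -4.93 on the log2 CPM scale. The hairpin libraries lay close together and far below the control. In PA-1 the gene had 0 counts in all 3 libraries, so no lower value could be seen there. The difference rests on the level of 1 control library.

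Counted over the 9 measured genes, 3 (IL1A, IL11 and LIF) were at least 2-fold higher with both hairpins in PA-1, where 3.36% of all genes were, and 0 were at least 2-fold lower, against 0.682% of all genes. In TOV21G 2 (IL11 and CXCL8) were at least 2-fold higher, against 4.26% of all genes, and 1 (CXCL12) was at least 2-fold lower, against 3.36%. The genes were chosen on these differences, so nothing is read from those shares or from the medians that follow. The median log2 difference of the 9 genes was 0.19 and 0.87 with hairpins 1 and 2 in PA-1 and 0.47 and 0.74 in TOV21G, where the median of all genes was 0 in each case. The PA-1 medians are values of genes at low counts. With hairpin 1 the middle gene was CCL2 (5 counts, against 4 in the control). With hairpin 2 it was IL6 (2 counts, against 0). edgeR's quasi-likelihood test called 0 genes (0%) for the hairpins against the control in PA-1 and 0 (0%) in TOV21G at an adjusted p under 0.05. At an unadjusted p under 0.05 it had 434 and 1612 genes, and DESeq2 called 36 and 226.

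**Figure D2:**
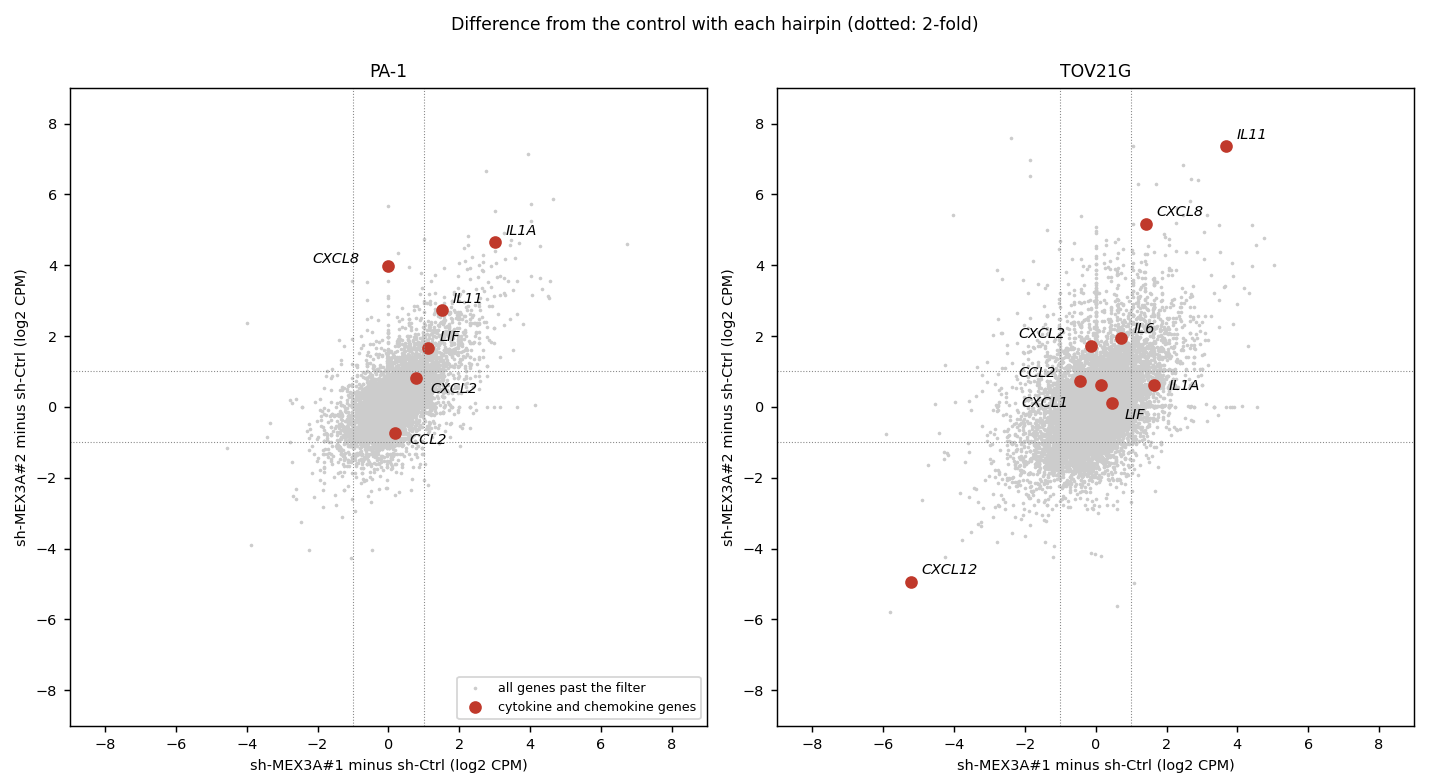
Log2 CPM difference from the control of the line with hairpin 1 (horizontal) and hairpin 2 (vertical), for the 16855 genes past the filter (grey) and for those of the 10 genes with more than 3 counts in a library of that line (red). IL11 lies beyond the dotted 2-fold lines for both hairpins in both panels, and CXCL8 in PA-1 lies at 0.02 below 0 with hairpin 1 and at 3.97 with hairpin 2.

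More of these genes differed between the hairpins in TOV21G than in PA-1, as did more of all genes. Few of them could differ in PA-1, where CXCL1 and CXCL12 had 0 counts, IL6 at most 2 and CCL2 at most 5. The genes were chosen with such differences in view, so nothing is read from these counts. In TOV21G 6 of the 9 genes were at least 2-fold apart between the hairpin libraries, as were 20.2% of all genes, and in 5 of them hairpin 2 was the higher (11.3% of all genes). In PA-1 3 of 9 were at least 2-fold apart, as were 6.37% of all genes, and in all 3 hairpin 2 was the higher (3.52%). The TOV21G difference between hairpins 2 and 1 was 3.7 for IL11, 1.87 for CXCL2, 1.22 for IL6, 1.19 for CCL2 and -1.02 for IL1A (at most 4 counts) on the log2 CPM scale. For MEX3A itself hairpins 1 and 2 left 41.2 and 54.9 CPM in PA-1 (137 CPM in the control), and 40.1 and 33.1 CPM in TOV21G (78.3 CPM in the control).

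The lines were compared with a test for 4 of the genes. The genes were chosen on hairpin differences, not on the line contrast, but from these same libraries and with earlier results known. The p-values for these 4 genes are therefore given as descriptions. IL11, LIF, CXCL8 and CXCL2 passed the filter on low counts in each line taken alone. IL6, CXCL1, CCL2 and CXCL12 passed it through TOV21G alone and IL1A through PA-1 alone. The filter itself thus favoured a line difference for these 5, and their differences are given as values with no test. edgeR's quasi-likelihood test, with Benjamini-Hochberg adjustment over all 16855 genes, called 20.0% of all genes higher in TOV21G and 20.6% lower. Summed over the 10 genes, TPM was 365 and 677 with hairpins 1 and 2 and 279 in the control of TOV21G, and 30.3, 73.6 and 8.22 in the same order in PA-1. Each sum is dominated by a few genes, CXCL1 and IL6 in TOV21G and IL1A, IL11 and LIF in PA-1.

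LIF and CXCL2 were higher in TOV21G. LIF had 46.6 to 64.4 CPM in TOV21G and 4.15 to 13.5 CPM in PA-1, a log2 fold change of 2.91 (SE 0.27, edgeR adjusted p = 0.00185). CXCL2 had 12.3 to 45.3 CPM in TOV21G and 0.441 to 0.865 CPM in PA-1, a log2 fold change of 4.99 (SE 0.71, edgeR adjusted p = 0.00584). Every TOV21G library lay above every PA-1 library for both genes, as for 29.4% of all genes, while the reverse held for 30.8%. IL11 and CXCL8 missed the threshold. IL11 had a log2 fold change of 0.08 (SE 1.83, edgeR adjusted p = 0.98), which averages 2.4 among the hairpin libraries (adjusted p = 0.174) and -2.24 between the controls (adjusted p = 0.578). DESeq2 called IL11 higher in TOV21G among the hairpin libraries. CXCL8 had 3.73 (SE 2.00, edgeR adjusted p = 0.192), DESeq2 put it past the threshold (adjusted p = 0.0163), and over its alternatives the adjusted p ran from 0.000515 to 0.555. Without PA-1 hairpin 2 the edgeR adjusted p was 0.0434, and without TOV21G hairpin 1 it was 0.0461.

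The other 5 genes also differed in level between the lines, CCL2 at low counts. CXCL1 had between 67.7 and 103 CPM in the 3 TOV21G libraries and 0 in the 3 PA-1 libraries, at least 434-fold higher as the TOV21G mean over the highest PA-1 level that 0 counts allow in a library. IL6 had 26.4 to 102 CPM in TOV21G and at most 0.102 CPM in PA-1, from 2 counts in all. CXCL12 was at least 44.8-fold higher in TOV21G by the same bound, which the control library carries (24.2 CPM there, 0.527 and 0.672 CPM with the hairpins). With the hairpin libraries alone the bound was 3.18-fold. CCL2 had 0.725 to 1.81 CPM in TOV21G and 0.102 to 0.303 CPM in PA-1. IL1A ran the other way, with 5 counts summed over TOV21G and 1003 over PA-1, so that PA-1 held 175 times as much by CPM (counting interval 74.8 to 541). The PA-1 hairpin libraries carry that ratio, with 205 and 775 counts. Between the controls IL1A had 23 counts in PA-1 and 0 in TOV21G.

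Within a library the order of levels by TPM differed by line. In TOV21G CXCL1 was the highest in each library and IL6 came next, with ranges over the 3 libraries that overlapped (143.02 to 218.57 and 55.92 to 213.42 TPM). CXCL2 followed in the hairpin 2 and control libraries, and LIF in the hairpin 1 library. CXCL12 stood just behind LIF in the TOV21G control and ahead of IL1A and IL1B alone with each hairpin. In PA-1 IL1A led with each hairpin, whereas LIF led in the control, where LIF (2.56 TPM), IL1A (1.81 TPM) and IL11 (1.42 TPM) lay close together.

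CXCL8, CXCL1 and CXCL2 belong to a block of 9 ELR-type and platelet chemokine genes that spans 358.6 kb of chromosome 4 (chr4:73740569-74099195 in GRCh38.p14). The neighbours did not share a single pattern. CXCL5, another CXCR2 ligand between CXCL1 and CXCL2, had 34.7 and 483 CPM with hairpins 1 and 2 in TOV21G, against 43.9 CPM in the control. In PA-1 CXCL5 had 14.9 and 73.9 CPM with the hairpins, against 12.7 CPM in the control, so that hairpin 2 was the high library in both lines, as for CXCL8. CXCL6 had 2.04 and 5.44 CPM with the hairpins in TOV21G and 0.844 CPM in the control. CXCL3 had 6.07 and 2.82 CPM with the hairpins there and 4.22 CPM in the control, so its hairpin 2 library was the low one. PF4 and PF4V1 had 0 counts in all 6 libraries, and PPBP had at most 5.

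**Figure D3:**
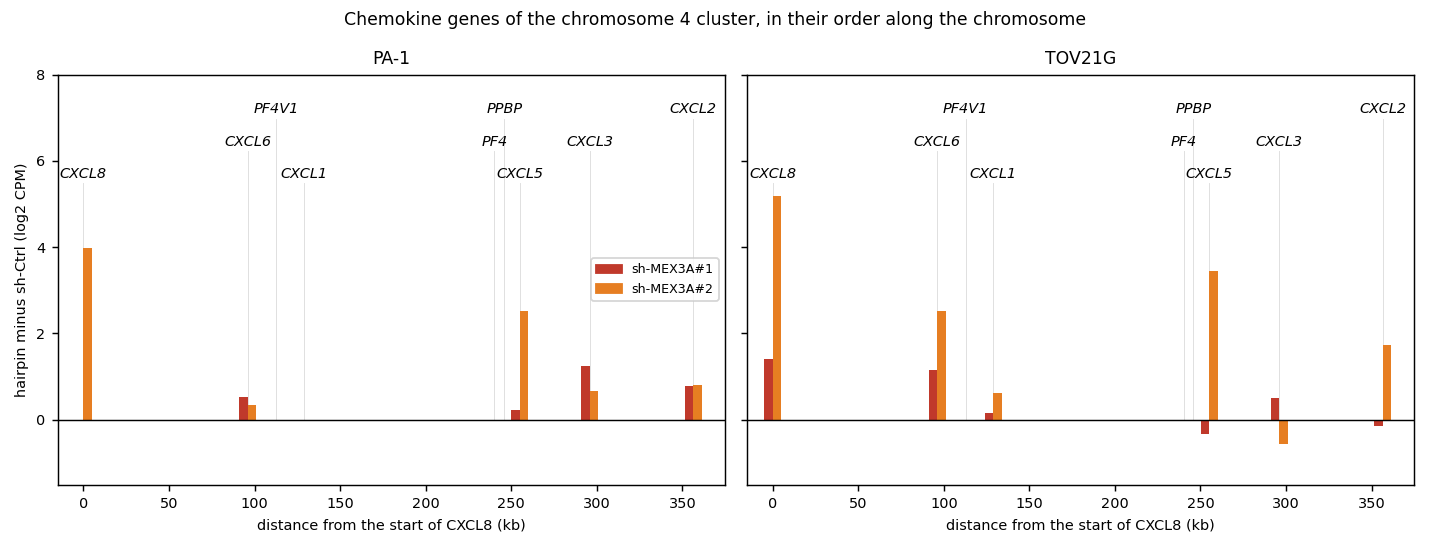
Log2 CPM difference from the control with hairpin 1 (red) and hairpin 2 (orange) for the measured genes of the chromosome 4 block, placed by the distance of each gene from CXCL8 in kb. In TOV21G the hairpin 2 bars of CXCL8 (5.18), CXCL5 (3.45) and CXCL6 (2.52) are the tallest, and the hairpin 2 bar of CXCL3 lies below 0 (-0.56); genes without a bar had too few counts.

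The other chemokines of a list of 24, drawn up with earlier results known, were mostly absent: 8 passed the filter. Of these 8, 4 were higher with both hairpins in PA-1 and 0 lower, and 3 were higher and 1 lower in TOV21G. Over all genes the share was 33.8% higher and 34% lower in PA-1 and 31.3% higher and 31.9% lower in TOV21G. CCL28, a mucosal chemokine, had 18.4 and 12.6 CPM with hairpins 1 and 2 in TOV21G, against 38.8 CPM in the control. CCL20, a ligand of CCR6 that was singled out after its values were seen, had 0 and 123 CPM with the hairpins in TOV21G and 0.52 CPM in the control. It had 0 counts in PA-1. The interferon-induced chemokines CXCL9, CXCL10 and CXCL11 reached at most 0.189 CPM in any library.

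Receptor mRNA for these ligands was unevenly present. IL1R1, the signalling interleukin-1 receptor, had 4.37 and 8.3 TPM with hairpins 1 and 2 in TOV21G, against 3.3 TPM in the control. In PA-1, the line with IL1A, it had 0.38 and 0.26 TPM with the hairpins and 0.39 TPM in the control. Its partner chain IL1RAP had 7.8 and 22.18 TPM with hairpins 1 and 2 in PA-1, against 4.91 TPM in the control. In TOV21G IL1RAP had 30.41 and 45.26 TPM with the hairpins and 30.58 TPM in the control. IL6ST had 55.89 and 96.8 TPM with the hairpins in TOV21G and 44.95 TPM in the control, and 23.35, 22.2 and 20.14 TPM in the same order in PA-1. IL6R, the chain that confers IL-6 binding, had 3.7 and 6.21 TPM with the hairpins in PA-1, against 1.67 TPM in the control. In TOV21G, the line with IL6, it had 0.73 and 4.41 TPM with hairpins 1 and 2 and 0.89 TPM in the control. LIFR lay between 13.69 and 22.3 TPM in all 6 libraries, and IL11RA between 1.15 and 4.19 TPM.

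CXCR1 had 0 counts in every library and CXCR2 at most 1.09 CPM. CCR2, the receptor of CCL2, had 0 counts throughout. CXCR4, the receptor of CXCL12, had 120.76 and 59.49 TPM with hairpins 1 and 2 in TOV21G and 94.12 TPM in the control, the line that held CXCL12. In PA-1 it had 4 and 5 counts with the hairpins and 0 in the control.

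**Figure D4:**
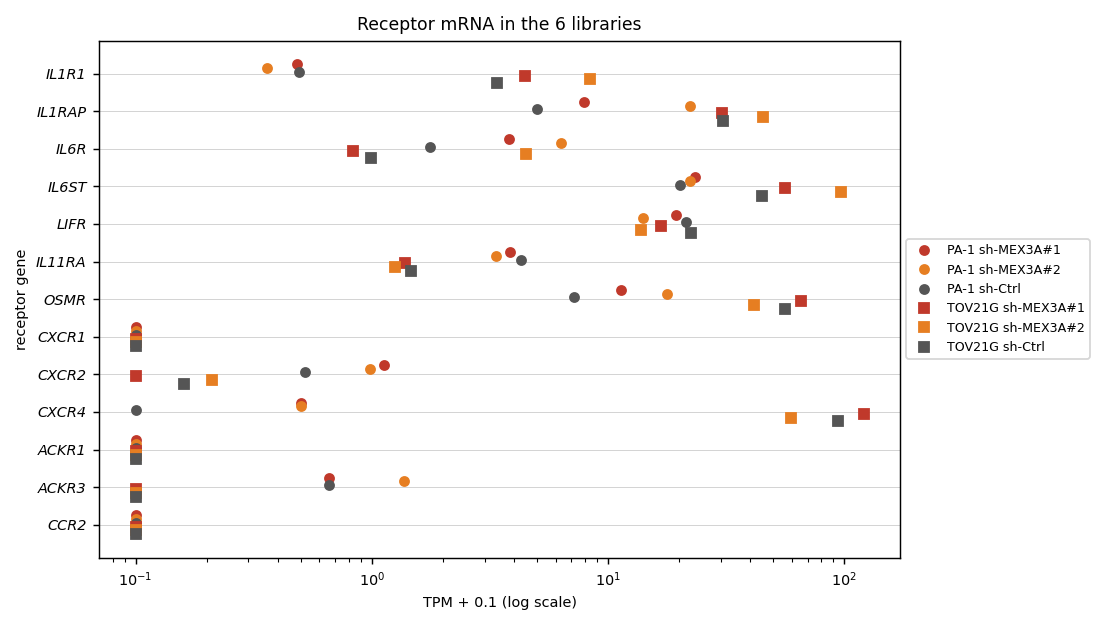
TPM plus 0.1 on a log axis for the receptors of the 10 ligands, with PA-1 as circles and TOV21G as squares (hairpin 1 red, hairpin 2 orange, control grey). IL6ST, LIFR, OSMR and IL1RAP are present in all 6 libraries, CXCR4 is high only in TOV21G (59.49 to 120.76 TPM), and CXCR1, ACKR1 and CCR2 sit at 0 in every library.

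In each pathway list at most 2 genes were at least 2-fold higher with both hairpins in a line, and at most 1 was lower. Over all genes the 2-fold shares were 3.36% higher and 0.682% lower in PA-1, and 4.26% and 3.36% in TOV21G. Shares on the same side with both hairpins were 33.8% higher and 34% lower in PA-1, and 31.3% and 31.9% in TOV21G. The lists are short and were chosen with earlier results known, so nothing is read from their counts here or below. Among 16 measured genes of the interleukin-6 family, its receptors and JAK-STAT3, 10 were higher and 5 lower with both hairpins in PA-1 and 8 higher and 3 lower in TOV21G. SOCS3, a STAT3 target that feeds back on gp130 signalling, had 6.37 and 12.9 CPM with hairpins 1 and 2 in PA-1, against 3.08 CPM in the control. CTF1 (cardiotrophin-1) had 4.15 and 3.96 CPM with the hairpins in TOV21G and 1.62 CPM in the control. Of 10 measured interleukin-1 family, receptor and adaptor genes, 4 were higher and 3 lower with both hairpins in each line, with none 2-fold in both. TOLLIP, an inhibitor of interleukin-1 receptor signalling, had 52.8 and 40 CPM with the hairpins in TOV21G, against 24.3 CPM in the control.

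Of the 17 NF-kB subunits, kinases and inhibitors, all measured, 11 were higher and 2 lower with both hairpins in PA-1, and 9 were higher and 2 lower in TOV21G. TNFAIP3 (A20), the feedback inhibitor, had 43 and 44.9 CPM with hairpins 1 and 2 in TOV21G, against 59.2 CPM in the control, but 18.5 and 25 CPM with the hairpins in PA-1, against 11.1 CPM in its control. RELB had 9.04 and 11.5 CPM with the hairpins in PA-1 and 5.41 CPM in the control. NFKBIA, which holds NF-kB in the cytoplasm, had 87.8 and 90 CPM with the hairpins in TOV21G and 65 CPM in the control. Of 13 measured other NF-kB targets, 9 were higher and 2 lower in PA-1 and 5 higher and 1 lower in TOV21G. CSF1 (M-CSF) had 36.3 and 66.6 CPM with the hairpins in TOV21G, against 14 CPM in the control, and complement C3 had 309 and 242 CPM, against 116 CPM. BIRC3, singled out after its values were seen, had 32.6 and 563 CPM with the hairpins in TOV21G and 42.5 CPM in the control, with hairpin 2 high as for CXCL8 and CXCL5.

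Among 13 transcription factors known to act on cytokine genes, 8 were higher and 1 lower with both hairpins in PA-1 and 7 higher and 2 lower in TOV21G. FOSL1 (FRA-1), an AP-1 subunit, had 27.7 and 36.3 CPM with hairpins 1 and 2 in PA-1, against 13 CPM in the control, and 42.3 and 56.4 CPM in TOV21G, against 25.7 CPM. JUN had 56.4 and 98.3 CPM with the hairpins in PA-1 and 26.4 CPM in the control. ATF3 had 5.6 and 23.9 CPM with the hairpins in TOV21G and 2.27 CPM in the control. edgeR called none of the genes of these lists in either line (adjusted p = 1 in PA-1 and 0.393 or above in TOV21G for those named by the rule), whereas DESeq2 called CSF1 in TOV21G.

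AU-rich elements were counted in the 3′UTR of the longest RefSeq-matched transcript of each gene in GENCODE 29, because the stability of these mRNAs is known to depend on them. All 10 genes were matched. Of 17016 genes with a 3′UTR of at least 100 bases, the median held 2 ATTTA pentamers (AUUUA in the RNA), or 1.6 per kb, and 8.48% held the nonamer TTATTTATT. Of the 10 genes, 6 held the nonamer, and IL1A, IL6, CCL2 and CXCL12 did not. CXCL2 had 10 pentamers in 721 bases (13.9 per kb), a density that 0.388% of genes reached. IL6 had 6 in 429 bases (14.0 per kb, reached by 0.37%). IL11 and CXCL8 had 9 each, a number that 14.4% of genes reached. IL1A and CXCL1 had 5 each, which 28.6% reached. IL1B had 6 in 610 bases (9.84 per kb, reached by 1.18%). LIF had 7 in 3204 bases (2.18 per kb), a density that 40.1% reached. CCL2 had 1, and CXCL12 had 4 in 3163 bases (1.26 per kb), the lowest density of the 10. The 30 bases richest in pentamers are shown for the 5 genes that were highest in the TOV21G hairpin 2 library, with pentamers in capitals, 5′ to 3′ in the mRNA sense, from CXCL2 chr4:74097590-74097619 (minus strand), CXCL1 chr4:73870665-73870694 (plus strand), CXCL8 chr4:73743108-73743137 (plus strand), IL11 chr19:55365951-55365980 (minus strand) and IL6 chr7:22731697-22731726 (plus strand).
CXCL2: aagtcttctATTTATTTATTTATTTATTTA
CXCL1: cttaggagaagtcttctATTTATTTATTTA
CXCL8: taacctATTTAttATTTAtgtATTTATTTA
IL11: ttccaaagccagatcttATTTATTTATTTA
IL6: ttttaattatttttaATTTAttaatATTTA

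Of 15 decay factors and other proteins that act on such mRNAs, all measured, 3 were higher and 7 lower with both hairpins in PA-1 and 4 higher and 6 lower in TOV21G, with 0 at least 2-fold with both hairpins in either line. ZFP36L2, a relative of tristetraprolin that promotes decay, had 38.3 and 16.3 CPM with hairpins 1 and 2 in TOV21G, against 57.5 CPM in the control. In PA-1 it had 80.3 and 81.6 CPM with the hairpins and 106 CPM in the control. DCP2, the decapping enzyme, had 287 and 266 CPM with the hairpins in TOV21G and 167 CPM in the control. ZFP36 (tristetraprolin) itself lay between 2.37 and 5.51 CPM in all libraries.

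For each measured gene the genes with the most similar pattern were taken, at most 3 each, by Euclidean distance over the 4 hairpin differences (log2 CPM) among genes with a mean of at least 1 CPM. Near to IL11 were ANKRD1 (distance 1.86) and AOX1 (2.62), which were also higher with both hairpins in both lines. Nearest to IL1A were TNFRSF14 (1.15), INHBA (1.25) and BCAN-AS1 (1.43). TMEFF1 (1.29), IPCEF1 (2.08) and PLXNA2 (2.73) were nearest to CXCL12, and IL31RA (2.06), DSC3 (2.19) and LOC101928841 (2.29) to CXCL8. LIF was nearest to SP100 (0.112), IL6 to MFGE8 (0.168), CXCL2 to GPR176 (0.263), CCL2 to PAK3 (0.345) and CXCL1 to RIPK3 (0.0261). Small distances go with small differences, and CXCL1 and IL6 had at most 2 counts in a PA-1 library. A pattern of 4 differences that share 2 controls says nothing of a shared cause.

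Markers of other cell types were checked beside these values. Of 10 leukocyte markers, 4 to 7 were at 0 in each library, PTPRC (CD45) reached at most 0.06 TPM and TYROBP was at 0 in all 6. The summed leukocyte list was 4.23 and 10.3 TPM with hairpins 1 and 2 in TOV21G and 3.62 TPM in the control, most of it CD68 (8.93 TPM with hairpin 2). In PA-1 it was 15.1, 16.3 and 14.4 TPM in the same order. The largest part there was CD52 (11.84, 8.19 and 11.53 TPM), which was at 0 in TOV21G. Summed fibroblast markers were 44.1 and 68.7 TPM with the hairpins in TOV21G, against 5.87 TPM in the control, most of it COL1A1, with 2 of 6 markers at 0 in the control. In PA-1 they were 145 and 193 TPM with the hairpins and 91.6 TPM in the control. Summed mesothelial markers were 59.8 and 96.1 TPM with the hairpins in TOV21G, against 35.1 TPM in the control, and 12.4, 19.2 and 12.9 TPM in the same order in PA-1. Endothelial markers summed to at most 1.14 TPM in TOV21G, and to 67.1 and 119 TPM with the hairpins and 72.2 TPM in the control of PA-1. Among the 3 TOV21G libraries fibroblast and mesothelial sums were highest with hairpin 2, as IL11 and CXCL8 were, and their part in those results was not tested.

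The 10 embryonal markers summed to 30.6 to 80.9 TPM in TOV21G and 4460 to 5650 TPM in PA-1. The clear cell markers did not all follow the line. PAX8 was at 135.91 TPM or above in TOV21G and at most 0.12 TPM in PA-1. KRT8 was at 74.82 to 157.01 TPM in TOV21G and 212.76 to 310.13 TPM in PA-1, and KRT18 overlapped between the lines. The clear cell list, led by SPP1, summed to 4190 and 6800 TPM with the hairpins and 10100 TPM in the control of TOV21G, and to 2170, 2200 and 741 TPM in the same order in PA-1, where SPP1 was also the largest part. The labels also give ovarian surface epithelium as the source of both lines, and the 7 markers of that tissue were unevenly present. MSLN was at 32.67 and 52.47 TPM with hairpins 1 and 2 and 16.14 TPM in the control of TOV21G. BNC1 was at 21.93, 37.04 and 14.76 TPM there in the same order. WT1 was at 1.3, 0.69 and 1.91 TPM in that order in TOV21G and at 8.53, 13.07 and 8.97 TPM in PA-1. UPK3B reached at most 0.17 TPM, LRRN4 0.98 TPM and CALB2 1.34 TPM in any library. MALAT1, a nuclear noncoding RNA, reached 9430 CPM with hairpin 1 and 18500 CPM with hairpin 2 in TOV21G and 4320 CPM in the control, so that the hairpin 2 library, high for most of the chemokines, also stood apart there. Its part in these values was not tested.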

How the data were processed

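Per the labels, poly(A)-selected RNA of 6 lentivirus-infected cell populations was sequenced as stranded libraries. The authors deposited 1 RSEM gene table per library with the expected count (an estimate that need not be whole), TPM, FPKM and transcript lengths, per the file headers. FPKM and lengths were deposited and not used in any test. The submitters' processing notes list cutadapt 1.12, STAR 2.5.3a, RSEM 1.2.31, edgeR 3.26.8 and hg38, with no role given, and the strand setting of the counting is not given in the sources used here. Totals of expected counts were 14654628 to 19495162 per library, so 3 counts, the level that 0 counts allow, equal 0.153 to 0.202 CPM.

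Expected counts were rounded and fitted with edgeR 4.0.16 (R 4.3.3): TMM scaling, filterByExpr on 4 groups, quasi-likelihood F test with 1 mean per group, 2 residual degrees of freedom and Benjamini-Hochberg adjustment at 0.05. The hairpins of a line, which are different reagents, are the only replicates, so p-values measure only their spread, and each control is assumed to vary likewise. SE is the absolute log2 fold change over the square root of F. Hairpin differences are log2 CPM with a prior count of 2. Intervals are exact at 95%. DESeq2 1.42.0, other scalings, prior counts and filters, the replicate block and leaving out each hairpin library were alternatives. Alignment used Biopython 1.88. The hairpin numbers mark the same reagent in both lines, not a shared culture.

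The 10 genes, the 8 pathway lists and the 6 marker lists were chosen with earlier results of these data known. All 10 genes are named. A list names at most 2 genes per line, those with the largest smaller-of-both-hairpins difference and a mean of at least 1 CPM. Sequences come from RefSeq (GRCh38.p14 promoters) and GENCODE 29. A marker gene and a gene of similar pattern are not reported here.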

Additional observations from a re-analysis of the deposited data

Results flagged for a closer look

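The measured cytokine and chemokine genes and the list genes named by the rule were searched for opposite sides of the control in the 2 lines, with both hairpins of a line on the same side. It found 4 genes, all from the interleukin-1 and NF-kB lists. Over all genes 33.8% were higher and 34% lower with both hairpins in PA-1, and 31.3% and 31.9% in TOV21G. The share of all genes on opposite sides was not counted, so nothing is read from the number 4. The value given is the mean log2 difference in TOV21G minus that in PA-1. TNFAIP3 had -1.38, with -0.46 and -0.4 for hairpins 1 and 2 in TOV21G and 0.73 and 1.17 in PA-1. TRAF6, an adaptor of the interleukin-1 receptor, had 0.56, NFKBIA 0.52 and NFKBIB 0.85, each higher with both hairpins in TOV21G and lower with both in PA-1. The edgeR interaction test gave TNFAIP3 an unadjusted p of 0.0187 and an adjusted p of 1. The other 3 had unadjusted p values of 0.131 to 0.173 with an adjusted p of 1, so none passed. The search picked the genes on the same differences that this test uses, so its p-values are no independent evidence. The PA-1 differences of TRAF6 (-0.08 and -0.11), NFKBIA (-0.05 and -0.09) and NFKBIB (-0.3 and -0.02) include values near 0. None of the 10 cytokine and chemokine genes showed this pattern. The search required more than 3 counts in a library of each line. IL6, CXCL1 and CXCL12 fell short of that in PA-1, and IL1B did not pass the filter, so these genes could not show it.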

How the results depend on the processing

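The count of genes at least 2-fold higher with both hairpins stayed at 3 in PA-1 and 2 in TOV21G under other scalings, TPM and no filter, except for 3 in TOV21G with a prior count of 0.5. With 1 hairpin left out it was 3 to 4 in each line, 4 in each without hairpin 1. Of 155 alternatives for single hairpin differences, 1 changed sign (CXCL2 with hairpin 1 in TOV21G), and on the TPM scale LIF and CXCL1 with hairpin 1 in TOV21G became 0.66 and 0.33. That scale shifts the median of all genes by 0.13 there. Genes called for hairpins against control numbered 36 in PA-1 and 226 in TOV21G by DESeq2, where edgeR had 0. With the hairpin number as a replicate block they numbered 13 and 36. Same-numbered hairpins deviated with a correlation of 0.236 over 16855 genes from a single pair of lines, which does not show that they are paired. Leaving out 1 hairpin library gave 0 to 1489 calls in TOV21G, the highest without hairpin 1, where TOV21G had 1 library per arm and was assumed to vary like PA-1. DESeq2 called 19 genes whose hairpin effect differed between lines. Genes called between lines numbered 3850 to 9946 with a hairpin library left out and 2508 with the control libraries alone. The causes were not tested. Depth limits IL1B, CCL2 and, in PA-1, IL6, CXCL1 and CXCL12.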
